A study of Mus musculus with 12 samples.

Results

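Repressors of MyoD-driven differentiation were followed in a mouse model of rhabdomyosarcoma, a cancer whose cells resemble arrested muscle precursors, as the inducer of the driving transgene was withdrawn. The group held 10 listed genes, Id1, Id2, Id3, Twist1, Twist2, Snai1, Snai2, Msc, Mdfi and Zeb1, out of 19937 genes measured, and all 10 were on the array with 1 probe set each. They were listed by name for this role, and the list was drawn up with earlier results of these data known.

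All samples carried the genotype Myf5Cre, R26-LSL-rtTA and Col1a-Teto-hYAP1 S127A on a C57BL/6 background, in which doxycycline switches on a mutant human YAP1 in cells with a history of Myf5 expression. Tumours grew from interstitial hindlimb muscle cells of donors given doxycycline for 4 weeks, transplanted into the gastrocnemius of NOD/SCID hosts that received doxycycline. They were taken at day 0 (TUM), or 3 days (OFF3) or 6 days (OFF6) after doxycycline was withdrawn from the host. Control muscle (CTL) was hindlimb of uninduced mice of the same genotype, with no transplant. Each group had 3 arrays. The labels give no ages and do not say whether replicates were separate animals, so p-values measure the spread between these samples only. Because the tumours lie in an immune-deficient host of another strain, tumour growth, doxycycline, transplantation and host cells cannot be told apart in the comparison with control muscle.

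MyoD and its relatives switch on muscle genes by binding a short DNA element, the E-box, as dimers with E-proteins, the products of Tcf3, Tcf4 and Tcf12. Id proteins bind E-proteins but have no DNA-binding region, and so withhold them from MyoD. Twist factors and musculin (Msc) compete for E-proteins and E-boxes, the zinc-finger factors Snail, Slug and Zeb1 bind E-boxes themselves and recruit co-repressors, and Mdfi (I-mfa) binds the myogenic factors and holds them out of the nucleus.

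Levels are the log2 of the intensity of the gene's probe set, and differences are in log2 units ± standard error. A gene was called where limma gave an adjusted p (Benjamini-Hochberg over all 19937 genes of the comparison) under 0.05. Median intensity per array ran from 86.7 to 93. All 9 muscle fibre markers were lower in TUM than in CTL, where 45.9% of all genes were lower. Their summed intensities were 22853 to 24604 in TUM against 74751 to 77307 in CTL. The 6 myoblast markers were mixed, with 4 higher and 2 lower in TUM than in CTL. Their sums were 8958 to 9467 in TUM against 8085 to 8327 in CTL. The largest difference was that of Myf5, an early myogenic factor (10.9-fold higher in TUM). OFF6 replicate 2 stood apart. Its mean correlation across genes was 0.991 with its own group and 0.995 with the OFF3 arrays, so calls against TUM that change without it are also given without it.

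The repressors did not move as a block when doxycycline was withdrawn. At day 3, 4 of the 10 rose (Id1, Msc, Mdfi and Zeb1) and 1 fell (Snai1), where 29.4% of all genes were called, 13.4% higher and 16% lower. At day 6 the same 4 rose, and Snai1 and Twist1 fell, where 31.5% of all genes were called, 14.9% higher and 16.6% lower. The median difference of the 10 genes was 0.14 at day 3 and 0.02 at day 6, beside 0.02 and 0.05 over all genes. Both comparisons use the same 3 TUM arrays.

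Set against control muscle, day 0 tumours had more signal for 5 of the 10 (Id2, Snai2, Snai1, Twist1 and Id3) and less for 3 (Id1, Twist2 and Msc). That comparison called 76.2% of all genes, 30.3% higher and 45.9% lower, so 8 of 10 is close to the background. The median of the 10 was 0.46, beside -0.15 over all genes, and the median over all genes became -0.29 with arrays centred on their median and -0.04 with quantile normalisation. The 5 genes that were higher in TUM than in CTL were also higher in OFF3 and OFF6 than in CTL. OFF3 minus CTL called all 10 genes, 8 higher and 2 lower (69.8% of all genes, 28.4% higher and 41.4% lower), and OFF6 minus CTL called 8, 7 higher and 1 lower (64.2% of all genes, 28.1% higher and 36.1% lower). The OFF3 count became 5 higher and 2 lower with arrays centred on their median, and 6 higher and 2 lower with quantile normalisation. The OFF6 count became 6 higher and 2 lower with either scaling.

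**Figure D1:**
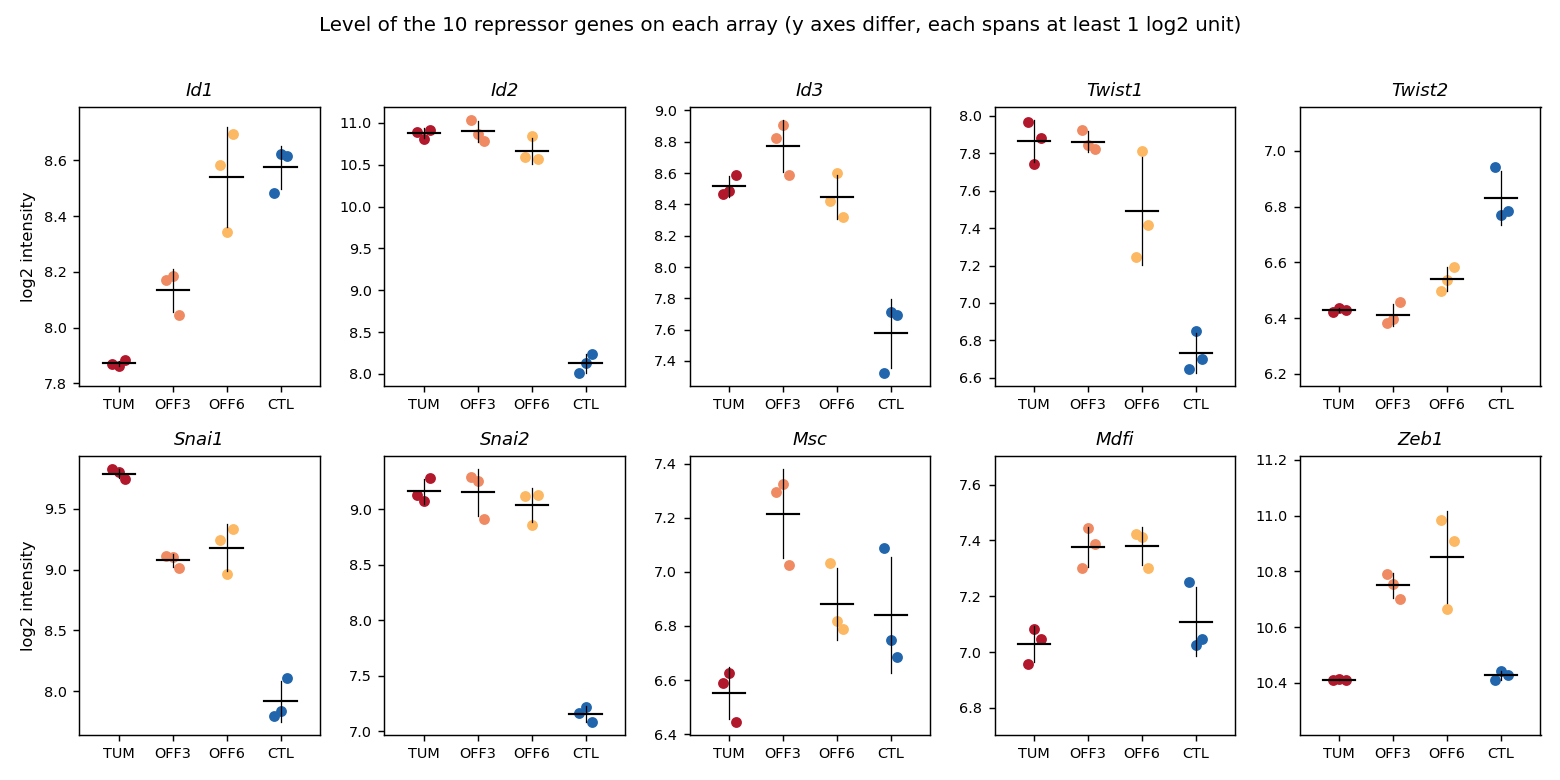
Log2 intensity of each repressor gene (y axis) on each of the 3 arrays of TUM, OFF3, OFF6 and CTL (x axis), with horizontal bars for the mean and vertical bars for the SD. Id2, Snai1 and Snai2 stand far above CTL in all tumour groups, Id1 climbs towards its CTL level, and the Zeb1 arrays of OFF3 and OFF6 lie above all TUM and CTL arrays.

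Among the Id genes, Id2 had the largest tumour signal relative to muscle and Id1 was the only one called after withdrawal. Id2 read 10.90, 10.81 and 10.92 on the TUM arrays, 11.04, 10.87 and 10.79 on OFF3, 10.59, 10.84 and 10.56 on OFF6, and 8.01, 8.14 and 8.23 on CTL. Every tumour array lay more than 2 log2 units above every muscle array, and the tumour groups overlapped with each other. Id2 was 6.72-fold higher in TUM than in CTL (2.75 ± 0.09, adjusted p = 4.00e-11 by limma) and still 5.82-fold higher in OFF6 than in CTL (2.54 ± 0.09). OFF3 differed from TUM by 0.02 ± 0.09 (95% interval -0.18 to 0.22) and OFF6 by -0.21 ± 0.09 (adjusted p = 0.11). Without OFF6 replicate 2, the day 6 difference was -0.30 and passed (adjusted p = 0.0171, range 0.000192 to 0.305 over all settings).

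Id1 read 7.87, 7.86 and 7.88 on the TUM arrays, 8.17, 8.18 and 8.05 on OFF3, 8.58, 8.34 and 8.70 on OFF6, and 8.48, 8.62 and 8.62 on CTL. The TUM arrays were the lowest and the tightest, the OFF3 arrays lay wholly above them, and the OFF6 arrays lay above OFF3 and across the CTL range. Id1 was lower in TUM than in CTL (-0.70 ± 0.08, adjusted p = 7.83e-06 by limma). It rose by day 3 (0.26 ± 0.08, adjusted p = 0.0343) and further by day 6 (0.67 ± 0.08, 1.59-fold, adjusted p = 6.05e-05). The call at day 3 was lost without any 1 of the 3 TUM arrays or without OFF3 replicate 1 or 2 (adjusted p from 0.081 to 0.111) and with arrays centred on their median (0.0864), in a range of 1.85e-05 to 0.111 over all settings. The call at day 6 held in every setting tried.

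Id1 was the only one of the 10 called between OFF6 and OFF3 (0.41 ± 0.08, adjusted p = 0.0127 by limma), where 10.4% of all genes were called, 6.05% higher and 4.38% lower. That call was lost in a model of the 6 arrays alone (adjusted p = 0.117) and without OFF6 replicate 1 (0.0631) or replicate 3 (0.0694), in a range of 2.51e-06 to 0.117 over all settings. By day 6 the difference from CTL was -0.03 ± 0.08 (95% interval -0.22 to 0.15). It passed as lower in OFF6 with arrays centred on their median (-0.21, adjusted p = 0.046) and with quantile normalisation (-0.25, adjusted p = 0.0207), in a range of 0.0207 to 0.937 over all settings.

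Id3 read 8.47, 8.49 and 8.59 on the TUM arrays, 8.83, 8.91 and 8.59 on OFF3, 8.42, 8.60 and 8.32 on OFF6, and 7.32, 7.71 and 7.70 on CTL. All tumour arrays lay above all muscle arrays, and the tumour groups overlapped. Id3 was 1.92-fold higher in TUM than in CTL (0.94 ± 0.12, adjusted p = 9.51e-06 by limma). It differed from TUM by 0.26 ± 0.12 at day 3 (adjusted p = 0.12) and by -0.07 ± 0.12 at day 6 (95% interval -0.32 to 0.18). The day 3 difference passed with array weights (0.39) and with quantile normalisation (0.32, adjusted p = 0.0365), in a range of 3.97e-05 to 0.352 over all settings.

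The promoters of Id2, Id3 and Snai1 are shown because these genes were higher in day 0 tumours than in muscle and hold at least 1 of the elements searched. They come from RefSeq (GRCm38.p6), run 5′ to 3′ from 250 bases before to 50 after the start, and 6 of the 10 genes had an entry, the others being Id1, Snai2, Msc and Zeb1. Capitals mark the E-box CANNTG, the element GGAATG of TEAD factors, through which YAP1 reaches DNA, and the element GGCGCC of BMP-activated SMADs, each searched on both strands; none overlapped another. Id2 is at chr12:25096043-25096342 (minus strand), Id3 at chr4:136143572-136143871 (plus) and Snai1 at chr2:167537945-167538244 (plus).
Id2: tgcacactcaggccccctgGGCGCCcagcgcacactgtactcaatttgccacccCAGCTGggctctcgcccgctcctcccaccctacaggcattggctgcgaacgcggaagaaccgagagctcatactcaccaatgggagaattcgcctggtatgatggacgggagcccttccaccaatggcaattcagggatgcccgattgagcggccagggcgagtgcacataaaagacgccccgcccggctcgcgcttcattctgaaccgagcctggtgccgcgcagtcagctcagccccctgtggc
Id3: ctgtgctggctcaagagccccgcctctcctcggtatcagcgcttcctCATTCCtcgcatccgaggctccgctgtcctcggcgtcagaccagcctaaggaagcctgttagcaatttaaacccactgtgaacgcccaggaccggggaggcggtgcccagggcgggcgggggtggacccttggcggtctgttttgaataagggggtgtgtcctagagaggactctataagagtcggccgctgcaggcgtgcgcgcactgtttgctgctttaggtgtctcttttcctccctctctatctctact
Snai1: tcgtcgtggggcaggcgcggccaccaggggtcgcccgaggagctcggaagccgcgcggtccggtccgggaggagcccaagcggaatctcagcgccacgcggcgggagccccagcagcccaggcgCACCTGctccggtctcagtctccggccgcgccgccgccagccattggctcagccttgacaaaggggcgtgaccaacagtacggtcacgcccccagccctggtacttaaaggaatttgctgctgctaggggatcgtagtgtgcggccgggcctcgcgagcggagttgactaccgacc
Id2 held an E-box with the letters CAGCTG from base -196 and a GGCGCC from base -231. Id3 held the TEAD letters, as CATTCC, from base -203, and no E-box. Snai1 held an E-box with the letters CACCTG, the form preferred by Snail factors, from base -126. Of 32851 RefSeq promoter windows of this length, 72.3% held an E-box, 20.2% the form CACCTG, 14.7% GGAATG and 11.9% GGCGCC, so each match is a description of the letters. Windows of Twist1 and Twist2 held none of the 3 elements, and the upstream window of the 2 of Mdfi held 4 E-boxes.

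Twist1, a helix-loop-helix factor of embryonic mesoderm and mesenchyme, read 7.97, 7.74 and 7.88 on the TUM arrays, 7.92, 7.84 and 7.82 on OFF3, 7.24, 7.81 and 7.42 on OFF6, and 6.65, 6.85 and 6.70 on CTL. TUM and OFF3 overlapped, the OFF6 arrays spread widely with replicate 2 at the TUM level, and the muscle arrays lay below all others. Twist1 was 2.19-fold higher in TUM than in CTL (1.13 ± 0.12, adjusted p = 2.32e-06 by limma). It differed from TUM by 0.00 ± 0.12 at day 3 (95% interval -0.26 to 0.26) and fell by 0.37 ± 0.12 at day 6 (adjusted p = 0.0314). The fall was 0.53 without OFF6 replicate 2 (adjusted p = 0.000432), and its call was lost without OFF6 replicate 1 (-0.25, adjusted p = 0.138) or 3 (0.0975), without TUM replicate 1 (0.118) or 3 (0.0879), and in a model of the 6 arrays alone (0.0913), in a range of 1.27e-05 to 0.138 over all settings. Between OFF6 and OFF3, whose arrays did not overlap, Twist1 differed by -0.37 ± 0.12 (adjusted p = 0.0708), and by -0.53 without OFF6 replicate 2 (adjusted p = 0.000815, range 5.86e-05 to 0.291 over all settings).

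Twist2, the close relative of Twist1 known from dermis and bone, went the other way against muscle. It read 6.42, 6.44 and 6.43 on the TUM arrays, 6.38, 6.40 and 6.46 on OFF3, 6.50, 6.54 and 6.58 on OFF6, and 6.94, 6.77 and 6.78 on CTL, the highest group. Twist2 was lower in TUM than in CTL (-0.40 ± 0.06, adjusted p = 6.45e-05 by limma), and differed from TUM by -0.02 ± 0.06 at day 3 and 0.11 ± 0.06 at day 6 (adjusted p = 0.205). The OFF6 arrays lay just above the TUM arrays without overlap, and the difference passed with array weights (0.13, adjusted p = 0.017, range 0.017 to 0.812 over all settings).

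Musculin (Msc) had the largest rise of the 10 at day 3. It read 6.59, 6.62 and 6.44 on the TUM arrays, 7.30, 7.33 and 7.02 on OFF3, 7.03, 6.82 and 6.79 on OFF6, and 7.09, 6.75 and 6.69 on CTL. TUM was the lowest group and overlapped none of the others. Msc rose 1.58-fold by day 3 (0.66 ± 0.12, adjusted p = 0.000821 by limma), a call that held in every setting, and was 0.33 ± 0.12 above TUM at day 6 (adjusted p = 0.0472). The day 6 call was lost without any 1 of the TUM arrays or OFF6 replicate 1 or 3 and under 3 other settings, quantile normalisation (adjusted p = 0.145), arrays centred on their median (0.0748) and a trended and robust variance (0.0528), in a range of 0.00359 to 0.176 over all settings. Against muscle, Msc was lower in TUM (-0.29 ± 0.12, adjusted p = 0.0376) and higher in OFF3 (0.38 ± 0.12, adjusted p = 0.0118), and in OFF6 the difference was 0.04 ± 0.12 (95% interval -0.21 to 0.29). The first of these calls was lost without CTL replicate 1 (-0.16, adjusted p = 0.18), TUM replicate 1 (0.0624) or TUM replicate 3 (0.129), in a range of 0.00338 to 0.18 over all settings. The second was lost with either other scaling and without CTL replicate 3 (0.0547), in a range of 5.6e-05 to 0.127 over all settings.

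**Figure D2:**
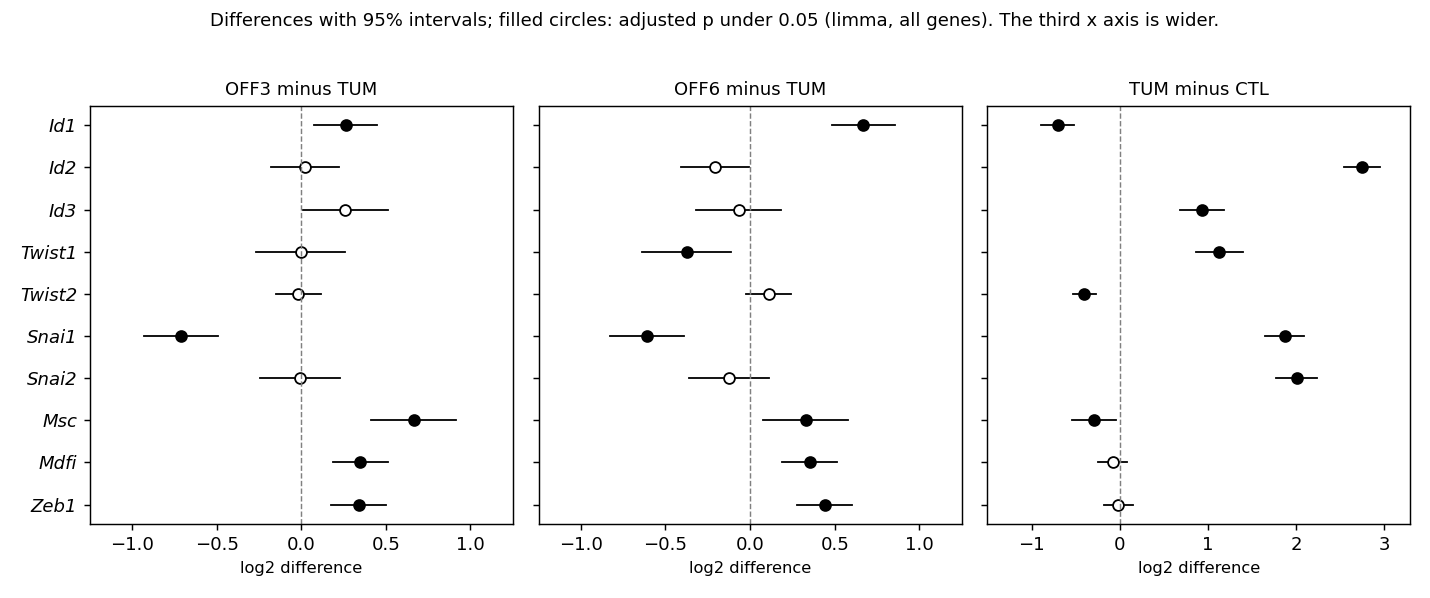
Log2 difference of each repressor gene (x axis, with 95% interval) for OFF3 minus TUM, OFF6 minus TUM and TUM minus CTL. Filled circles passed an adjusted p of 0.05 over all genes. Snai1 lies left of 0 in both withdrawal panels, Id1, Msc, Mdfi and Zeb1 lie right of 0 in both, and Id2, Snai1 and Snai2 have the largest differences between TUM and CTL.

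Snai1, which encodes Snail, was the one repressor that fell at both times. It read 9.82, 9.80 and 9.75 on the TUM arrays, 9.11, 9.10 and 9.02 on OFF3, 9.25, 8.96 and 9.33 on OFF6, and 7.80, 7.84 and 8.11 on CTL. The TUM arrays lay above all others, OFF3 and OFF6 overlapped, and CTL lay below all tumour arrays. Snai1 fell 1.64-fold by day 3 (-0.71 ± 0.10, adjusted p = 0.000167 by limma) and stood 1.53-fold below TUM at day 6 (-0.61 ± 0.10, adjusted p = 0.000477). Between OFF6 and OFF3 the difference was 0.10 ± 0.10 (95% interval -0.12 to 0.32). Snai1 remained 2.40-fold higher in OFF6 than in CTL (1.26 ± 0.10), beside 3.66-fold in TUM (1.87 ± 0.10). These falls and both differences from CTL held in every setting, and without OFF6 replicate 2 the day 6 fall was 0.50 (adjusted p = 0.000724).

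Snai2, which encodes Slug, a factor also known from muscle precursors, read 9.13, 9.07 and 9.28 on the TUM arrays, 9.30, 9.26 and 8.91 on OFF3, 9.12, 8.86 and 9.13 on OFF6, and 7.16, 7.22 and 7.08 on CTL. The tumour groups overlapped throughout, and all lay above muscle. Snai2 was 4.02-fold higher in TUM than in CTL (2.01 ± 0.11, adjusted p = 2.69e-09 by limma) and 3.69-fold higher in OFF6 than in CTL (1.88 ± 0.11). It differed from TUM by -0.01 ± 0.11 at day 3 (95% interval -0.24 to 0.23) and by -0.12 ± 0.11 at day 6 (-0.36 to 0.11), intervals that lie wholly above the Snai1 differences at the same days.

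Zeb1, a zinc-finger factor that holds back muscle genes in myoblasts, read 10.41 on each of the 3 TUM arrays, 10.79, 10.76 and 10.70 on OFF3, 10.98, 10.66 and 10.91 on OFF6, and 10.41, 10.44 and 10.43 on CTL. Tumours at day 0 and muscle overlapped, and every array after withdrawal lay above both. Zeb1 rose by 0.34 ± 0.07 at day 3 (1.26-fold, adjusted p = 0.0042 by limma) and by 0.44 ± 0.07 at day 6 (1.36-fold, adjusted p = 0.000609), and by 0.53 at day 6 without OFF6 replicate 2. The difference between TUM and CTL was -0.02 ± 0.07 (95% interval -0.18 to 0.15). Zeb1 was also higher in OFF3 than in CTL (0.32 ± 0.07, adjusted p = 0.00214), a call lost with arrays centred on their median (0.15, adjusted p = 0.109, range 2.7e-05 to 0.109 over all settings), and higher in OFF6 than in CTL (0.42 ± 0.07, adjusted p = 0.000295).

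Mdfi, the inhibitor that binds the myogenic factors themselves, read 6.96, 7.08 and 7.05 on the TUM arrays, 7.30, 7.44 and 7.39 on OFF3, 7.42, 7.41 and 7.30 on OFF6, and 7.25, 7.03 and 7.05 on CTL. The OFF3 and OFF6 arrays lay above all TUM and CTL arrays. Mdfi rose by 0.35 ± 0.07 at both day 3 (1.27-fold, adjusted p = 0.00325 by limma) and day 6 (1.28-fold, adjusted p = 0.00284). Its difference between TUM and CTL was -0.08 ± 0.07 (adjusted p = 0.33), and passed as lower in TUM with arrays centred on their median (-0.22, adjusted p = 0.0107) and with quantile normalisation (-0.24, adjusted p = 0.0154), in a range of 0.0107 to 0.91 over all settings. The calls against CTL after withdrawal, 0.27 ± 0.07 at both days, were lost with the same 2 scalings (adjusted p from 0.216 to 0.476), in ranges of 9.89e-05 to 0.476 for OFF3 and 0.0014 to 0.459 for OFF6 over all settings.

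In the fit of all 12 arrays, the order of the group means differed between the genes. For Id2, TUM and OFF3 were highest, then OFF6, with no pair of the 3 called, and CTL was far below. Id3, Twist1 and Snai2 had CTL lowest as well, and the only call among their tumour groups was Twist1 in OFF6 minus TUM. For Snai1 the order was TUM, then OFF6 and OFF3 with no difference called between them, then CTL. Id1 ran from TUM up through OFF3 to OFF6 and CTL, the last pair not called. Zeb1 and Mdfi had OFF6 and OFF3 together on top and CTL and TUM together below. Part of this rests on OFF6 replicate 2. Without it, limma also called Id2 (-0.32, adjusted p = 0.0161), Id3 (-0.40, 0.0292), Twist1 (-0.53, 0.000815) and Zeb1 (0.20, 0.0254) in OFF6 minus OFF3. Id2 was then called in OFF6 minus TUM too (-0.30, adjusted p = 0.0171 by limma).

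The factors that these repressors act on changed in mixed directions. Of 10 genes of the MyoD family, E-proteins and MEF2 factors, 5 rose and 2 fell at day 3, and 6 rose and 2 fell at day 6, also without OFF6 replicate 2. Among all genes, 29.4% were called at day 3 and 31.5% at day 6. Their median difference was 0.19 at day 3 and 0.42 at day 6. Myod1 read 10.21 ± 0.03 in TUM, 10.71 ± 0.05 in OFF3, 11.36 ± 0.50 in OFF6 and 9.69 ± 0.07 in CTL (SD, n = 3 each), and OFF6 replicate 2 read 10.79 where replicates 1 and 3 both read 11.65. Myod1 differed from TUM by 0.50 ± 0.17 at day 3 (adjusted p = 0.0457 by limma), a call lost without any 1 of the 6 arrays, with median centring and with the replicate number as a block, in a range of 2.28e-06 to 0.122 over all settings. It rose by 1.15 ± 0.17 at day 6, and by 1.44 without OFF6 replicate 2. Myog, the factor of terminal differentiation, read 9.39 ± 0.11 in TUM, 10.40 ± 0.10 in OFF3, 10.60 ± 0.25 in OFF6 and 6.99 ± 0.25 in CTL, rising 2.01-fold by day 3. Myf5 (-0.78 ± 0.08 at day 3) fell.

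Of the E-proteins, which Id proteins bind, Tcf3 fell and Tcf12 had no call after withdrawal. Tcf3 read 9.43 ± 0.07 in TUM, 9.07 ± 0.14 in OFF3, 8.93 ± 0.03 in OFF6 and 8.13 ± 0.08 in CTL (SD, n = 3 each). Tcf3 differed from TUM by -0.36 ± 0.08 at day 3 and -0.50 ± 0.08 at day 6 (adjusted p = 0.00301 and 0.000244 by limma). Tcf4 rose by 0.29 ± 0.05 at day 3 and differed by 0.09 ± 0.05 at day 6 (adjusted p = 0.271). Tcf12 differed by 0.02 ± 0.07 at day 3 and by -0.09 ± 0.07 at day 6. All 3 were higher in TUM than in CTL, Tcf3 by 1.30 ± 0.08, Tcf12 by 0.96 ± 0.07 and Tcf4 by 0.55 ± 0.05.

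**Figure D3:**
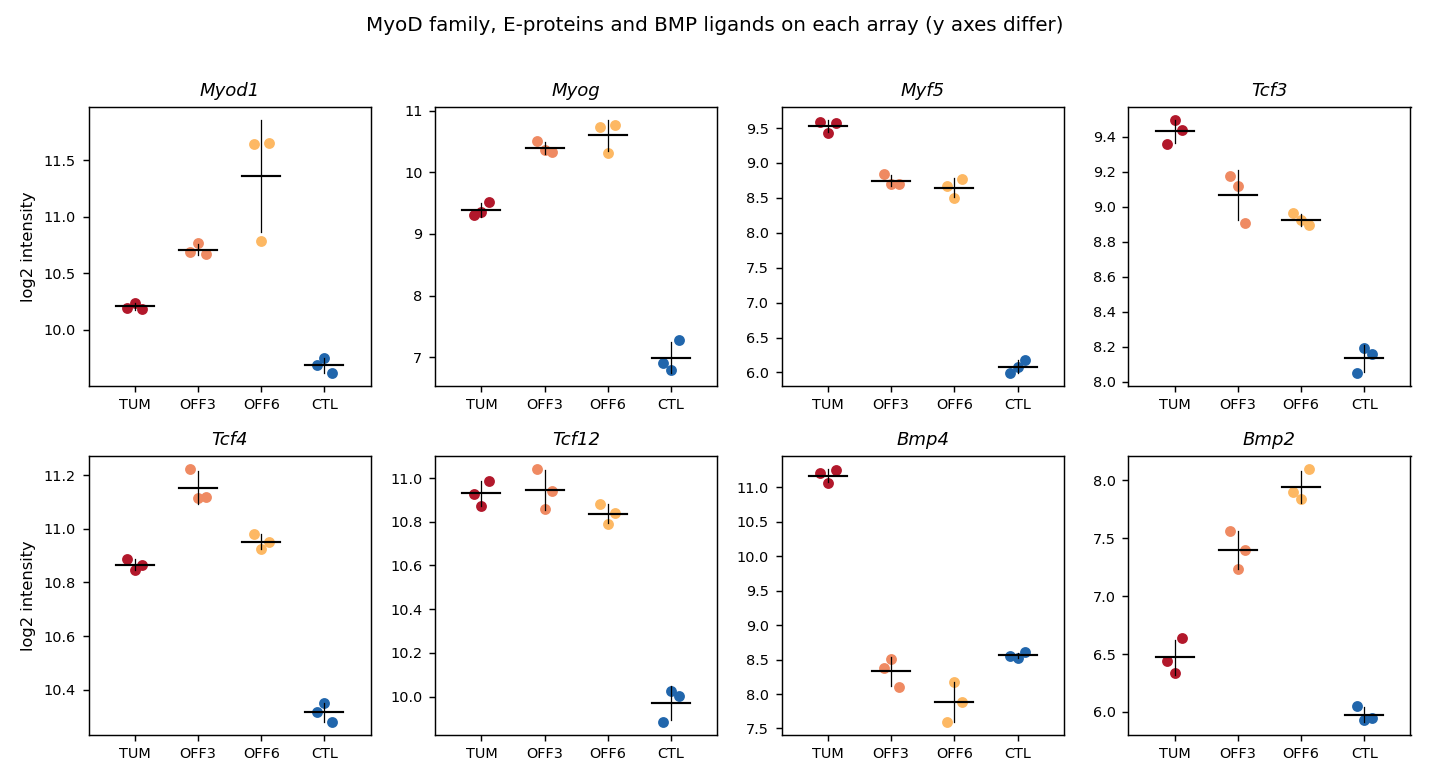
Log2 intensity (y axis) of Myod1, Myog, Myf5, the E-protein genes Tcf3, Tcf4 and Tcf12, and the ligand genes Bmp4 and Bmp2 on each array of TUM, OFF3, OFF6 and CTL (x axis), with the mean and SD. Myod1 and Myog are highest in OFF6, Tcf3 steps down after withdrawal, and Bmp4 drops below its CTL level while Bmp2 climbs.

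Most of the muscle genes downstream rose. Of 24 MyoD and myogenin target genes, 19 rose and 1 fell at day 3 (median 0.97), and 23 rose and 0 fell at day 6 (median 1.34). Without OFF6 replicate 2 the day 6 counts were also 23 and 0, and limma at an unadjusted p under 0.05 gave 23 and 0. The fast troponin Tnnc2 (1.74 ± 0.13), embryonic myosin Myh3 (1.58 ± 0.12) and slow troponin Tnni1 (1.54 ± 0.11) had the largest differences at day 3. At day 6 these were Tnni1 (2.36 ± 0.11), Myh3 (2.28 ± 0.12) and the slow troponin Tnnt1 (2.13 ± 0.13). The gene that fell at day 3 was Cdh15 (-0.45 ± 0.12, adjusted p = 0.0158 by limma), the cadherin of myoblasts. The call was lost without OFF3 replicate 3, when 0 of the 24 fell. In TUM against CTL, 8 of the 24 were higher and 14 lower, where 30.3% of all genes were higher and 45.9% lower. The fast troponins Tnni2 (-3.05 ± 0.11) and Tnnc2 (-2.92 ± 0.13) were lowest. Over the same days 4 of the 10 repressors were called higher, where 13.4% of all genes were at day 3 and 14.9% at day 6. Of those 4, Id1 at day 3 and Msc at day 6 lost their call under several settings. A link between the repressors and these targets was not tested.

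**Figure D4:**
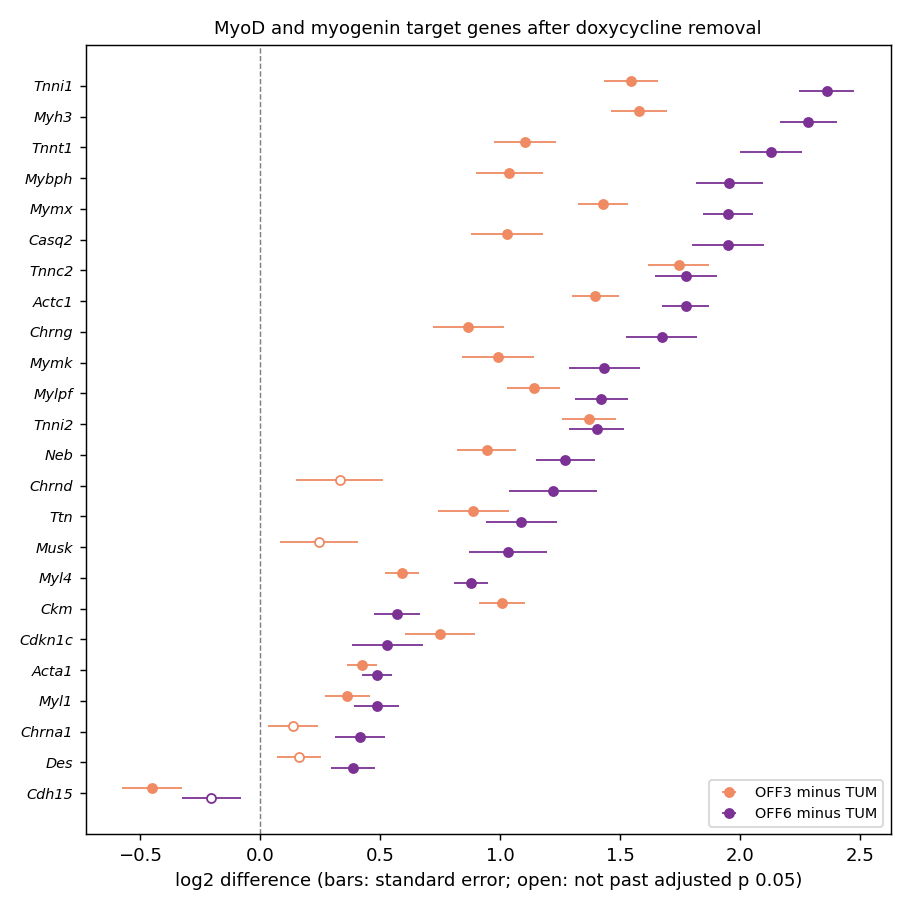
Log2 difference (x axis, bars for the standard error) of 24 MyoD and myogenin target genes (y axis) for OFF3 minus TUM and OFF6 minus TUM, ordered by the day 6 value. Filled circles passed an adjusted p of 0.05. At day 6, 23 lie to the right of 0 and passed, and Cdh15 alone lies to the left.

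Id genes are the classic targets of bone morphogenetic proteins (BMPs), and Snail, Twist and Zeb genes respond to TGF-beta. Of 27 BMP and TGF-beta ligands, receptors, SMADs and antagonists, 6 rose and 4 fell at day 3 (median 0.06), and 4 rose and 3 fell at day 6 (median 0.10). Over all genes, 29.4% were called at day 3 and 31.5% at day 6, so these counts are close to the background. The rises at day 6 numbered 8 without OFF6 replicate 2, and those at day 3 numbered 3 without TUM replicate 1 and 14 with array weights. Bmp4 had the largest difference. It read 11.17 ± 0.10 in TUM, 8.33 ± 0.21 in OFF3, 7.88 ± 0.29 in OFF6 and 8.56 ± 0.04 in CTL (SD, n = 3 each), a 7.17-fold fall by day 3 (adjusted p = 3.04e-08 by limma). Bmp2 rose 1.90-fold by day 3 and 2.78-fold by day 6, and Tgfb3 rose by 0.94 ± 0.06 and 1.05 ± 0.06. Id1 thus rose while Bmp4 fell and Bmp2 rose, and Id2 and Id3 had no call at either day. Tgfb1 was 4.16-fold higher in TUM than in CTL (2.06 ± 0.10) and differed from TUM by 0.20 ± 0.10 at day 3 and 0.24 ± 0.10 at day 6 (adjusted p = 0.186 and 0.0959). The day 3 difference passed with array weights, with quantile normalisation (0.0449) and without OFF3 replicate 3 (0.31, adjusted p = 0.0286), in a range of 4.57e-05 to 0.569 over all settings. The day 6 difference passed with array weights, with quantile normalisation (0.0313), with only those 6 arrays fitted (0.0484) and without OFF6 replicate 2 (0.31, adjusted p = 0.0363), in a range of 0.000494 to 0.28 over all settings.

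Snail, Twist and Zeb factors are best known for holding down epithelial genes. Of 12 such genes, 0 rose and 2 fell at day 3, and 2 rose and 2 fell at day 6, with medians of 0.09 at both. The shares called over all genes were 29.4% and 31.5%. The falls were the keratins Krt8 (-1.67 ± 0.16 and -2.32 ± 0.16) and Krt18 (-0.91 ± 0.18 and -0.86 ± 0.18). The E-cadherin gene Cdh1, a classic Snail target, differed from TUM by 0.26 ± 0.10 at day 3 (adjusted p = 0.0764 by limma, passing with array weights and with only those 6 arrays fitted) and rose by 0.59 ± 0.10 at day 6 (adjusted p = 0.00058). For the 0 rises at day 3, limma gave 1 at an unadjusted p under 0.05, 5 with array weights and 1 in a model of the 6 arrays alone. In TUM against CTL, 2 of the 12 were higher and 8 lower (5 lower with quantile normalisation), where 30.3% of all genes were higher and 45.9% lower. Krt8 was 20.6-fold higher in TUM than in CTL.

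Of 16 other repressors and relatives of the 10, 7 rose and 2 fell at day 3 (median 0.15), and 6 rose and 2 fell at day 6 (median 0.17). Beside these, 13.4% of all genes rose and 16% fell at day 3, and 14.9% rose and 16.6% fell at day 6. Without OFF6 replicate 2 the day 6 counts were 8 and 1, and without any 1 of the 6 arrays 1 gene fell at day 3. The Notch effector genes Hey1 (0.72 ± 0.10) and Heyl (0.67 ± 0.16) rose most at day 3. Hey1 stood 0.75 ± 0.10 above TUM at day 6, and Heyl 0.40 ± 0.16 (adjusted p = 0.0827 by limma), which passed without OFF6 replicate 2 (0.60, adjusted p = 0.00346) and with array weights (2.38e-05 to 0.275 over all settings). Ezh2, the histone methyltransferase of Polycomb, fell by 0.71 ± 0.10 and 0.86 ± 0.10. Snai3, the third Snail relative, was lower in TUM than in CTL (-2.40 ± 0.11) and rose at both days (0.65 ± 0.11 and 0.58 ± 0.11), so the 3 Snail genes each had their own course. Mdfic, the relative of Mdfi, was 2.71-fold higher in TUM than in CTL and had no call after withdrawal. With array weights it passed in OFF3 minus TUM (0.16, adjusted p = 0.00135 by limma, range 0.00135 to 0.497 over all settings). It also passed with array weights in OFF6 minus OFF3 (-0.19, adjusted p = 0.00145).

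All of these are bulk tissue measurements, in which fewer cells of a type and less RNA per cell cannot be told apart, and several of the 10 genes are known from stromal cells as well as from myoblasts. Of 11 fibroblast markers, 9 rose and 0 fell at day 3, and 9 rose and 1 fell at day 6. Their summed intensity ran from 31671 to 33481 in OFF3 and from 23787 to 32386 in OFF6, against 19055 to 19283 in TUM, and from 13712 to 14501 in CTL. OFF6 replicate 2 was the array at 32386. Of the 3 OFF6 arrays it lay nearest to the OFF3 mean in 7 of the 10 repressors, the exceptions being Twist2, Snai2 and Msc, and in Snai2 it lay farthest. Of 12 endothelial markers, 11 rose and 0 fell at day 3 and 7 rose at day 6, with sums of 5666 to 6077 in OFF3 and 4437 to 5222 in OFF6, against 4011 to 4053 in TUM, and 7526 to 7691 in CTL. Pericyte and smooth muscle markers numbered 9, of which 8 rose at day 3 and 5 at day 6, with 1 lower each time. Without OFF6 replicate 2, 6 endothelial markers and 6 pericyte and smooth muscle markers rose at day 6. In TUM against CTL, the fibroblast list had 4 higher and 6 lower (median -0.57), although Postn had its largest difference at 2.76 ± 0.10. The pericyte list had 4 higher and 5 lower (median -0.26, largest difference Abcc9 at -3.65 ± 0.11), and all 12 endothelial markers were lower (largest difference Flt1 at -1.84 ± 0.06).

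Markers of the muscle lineage moved as well. Of 9 muscle fibre markers, 8 rose and 0 fell at both days, with sums of 40300 to 50231 in OFF3 and 41877 to 42075 in OFF6, and 1, Pvalb, was lower than TUM at day 6 without OFF6 replicate 2. Of 6 myoblast markers, 2 rose and 2 fell at day 3, and 3 rose and 2 fell at day 6. This list shares Myod1, Myog and Myf5 with the MyoD family list and Cdh15 with the target list, so the counts are not separate.

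Macrophage markers set the tumours apart from muscle. All 9 were higher in TUM than in CTL, with sums of 23824 to 24585 in TUM against 3986 to 4462 in CTL, led by Adgre1 (3.56 ± 0.17). After withdrawal 2 rose and 1 fell at day 3, and 0 rose and 2 fell at day 6 (0 rose by limma at an unadjusted p under 0.05 as well, and 4 fell without OFF6 replicate 2). Their sums ran from 28433 to 29560 in OFF3, above all TUM arrays. In OFF6 they were 20909 and 21116 on replicates 1 and 3, below all TUM arrays, and 29195 on replicate 2. All 5 adipocyte markers, led by Adipoq (-2.74 ± 0.27), and all 3 Schwann cell markers, led by Mbp, were lower in TUM than in CTL. After withdrawal 0 of these 8 were called, and 0 passed an unadjusted p under 0.05 by limma, although 1 adipocyte marker fell at day 6 without OFF6 replicate 2. With array weights, Adipoq (0.26, adjusted p = 0.0463 by limma) and Mbp (0.21, adjusted p = 0.0407) passed as higher at day 3. No listed marker was at 0, since array intensities have no zero. The part of fibroblasts, endothelium, pericytes and macrophages in the differences of the 10 repressors was not tested.

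**Figure D5:**
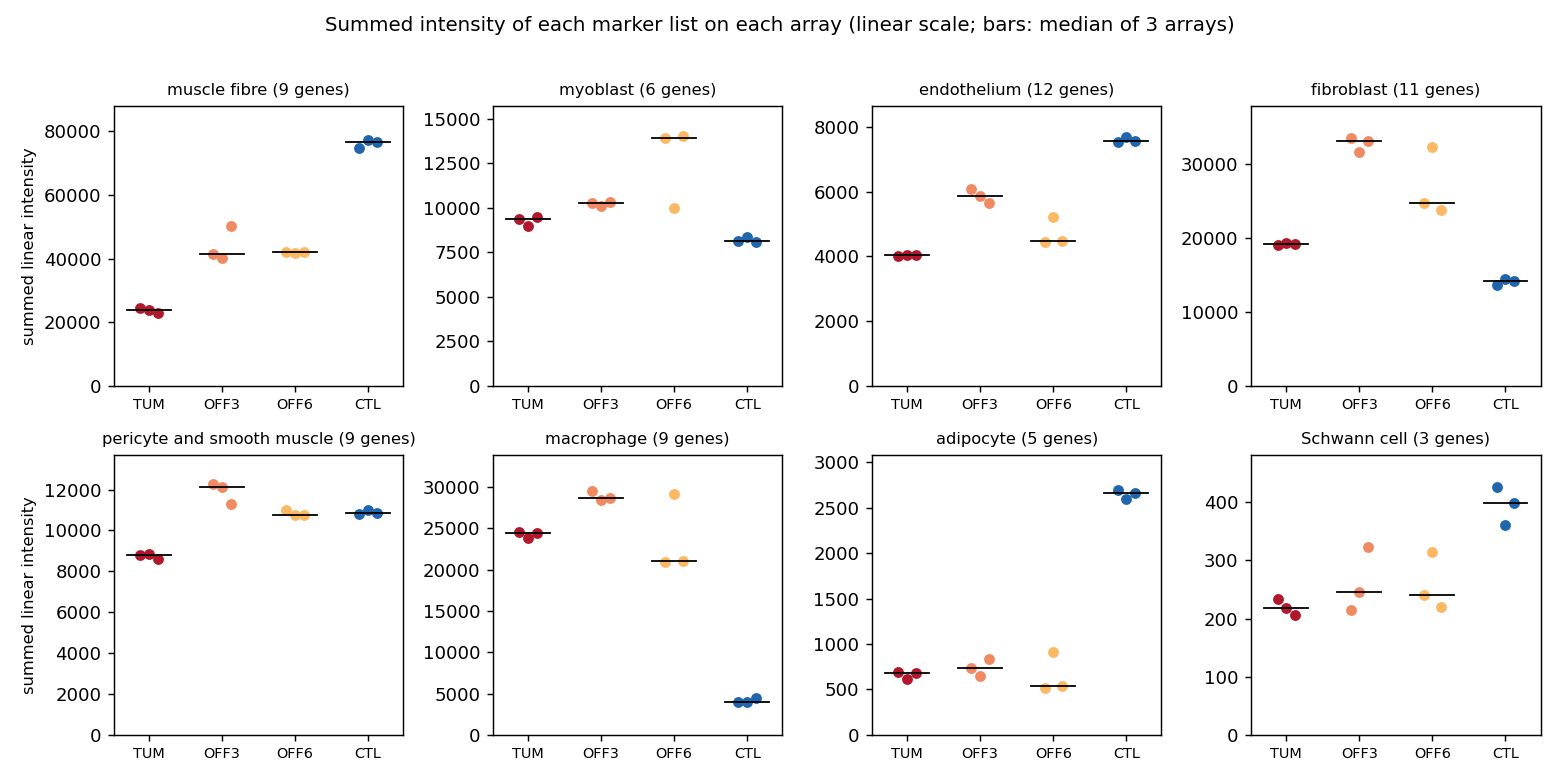
Summed linear intensity (y axis, from 0), of 8 marker lists on each array of TUM, OFF3, OFF6 and CTL (x axis), with bars for the median. Fibroblast sums are highest in OFF3 and on OFF6 replicate 2, macrophage sums are far lower in CTL than in any tumour, and muscle fibre sums in the tumours lie below CTL.

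For the 5 repressors whose group means spanned at least 1 log2 unit, the genes with the most similar profile over the 12 arrays were found by the root mean square difference after each gene was centred on its mean, among 18706 genes, leaving out those with provisional names. Nearest to Snai1 were Pgd, Magi3 and Btbd19, 0.0948 to 0.0996 log2 units away. Nearest to Id2 were Slc38a6, Rnf213 and Laptm5, 0.076 to 0.0856 away, and nearest to Snai2 were Chsy1, Ppt1 and Slc1a4, 0.111 to 0.125 away. Twist1 lay nearest to Atxn3, Cyp2j6 and Fam102b, at 0.0576 to 0.0881, and Id3 nearest to Nhlrc3, Relch and Decr2, at 0.0897 to 0.094. Since most of the span of these 5 genes lies between tumour and muscle, the measure weighs that difference most.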

How the data were processed

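Total RNA was hybridised to 12 one-colour Affymetrix arrays, 3 each for TUM, OFF3, OFF6 and CTL. The authors deposited 1 linear intensity per probe set and array, made with RMA, per the submitters' processing notes; its version is not given in the sources used here. Of 34760 probe sets, 21640 had 1 gene symbol, 1321 several and 11799 none listed; only the first kind was used, with symbols updated through Entrez IDs. Log2 was taken, and the probe set with the highest mean was kept for each of 19937 genes.

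All 12 arrays entered 1 fit of limma 3.58.1 in R 4.3.3 (lmFit, eBayes) with a term for each group, two-sided, with Benjamini-Hochberg adjustment over all genes; 6 comparisons were read from it. The median standard error was 0.086 log2 units, and precision is limited by the number of arrays. The script was first tested on simulated data. No 2 arrays were identical.

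The members and gene lists were chosen with earlier results of these data known. Named genes are the members; Myod1, Myog, Myf5, Tcf3, Tcf4 and Tcf12; from each other pathway list the 3 called genes with the largest difference at day 3 and at day 6 and the 2 against CTL; and 1 gene per marker list. Cdh15 and Heyl at day 6 are named for their counts or course. Of 160 list genes, 156 were measured. Alternatives were another probe set rule, a filter on low values, 2 scalings, another variance model, array weights, a replicate block, only the 6 arrays compared and each array left out. Figures used Python 3.11.15 and matplotlib 3.10.9.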

Additional observations from a re-analysis of the deposited data

Results flagged for a closer look

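Id1 differed between the time points: its change from TUM was larger at day 6 (0.67 ± 0.08) than at day 3 (0.26 ± 0.08), a difference of 0.41 with adjusted p = 0.0127 by limma in OFF6 minus OFF3. All 3 OFF6 arrays lay above all 3 OFF3 arrays. The call was lost with only those 6 arrays fitted (adjusted p = 0.117 by limma) and without OFF6 replicate 1 (0.0631) or 3 (0.0694). Both changes use the same TUM arrays, which cancel in this comparison. Groups of 3 arrays are too small to test single arrays as outliers.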

How the results depend on the processing

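Of 840 repeats of the member tests under the alternatives, 782 kept their side of the threshold, 34 lost the call and 24 gained one. Every member had 1 probe set and none lay below the lower quartile of gene means. The other probe set rule and the filter on low values therefore left the members' own values unchanged. They could move a member's call only through the other genes, and gave the main count of members called in every comparison. In 0 repeats did the direction reverse where either fit gave a call. Changes of sign where neither fit gave a call count among the 782. Id2 in OFF3 minus TUM, for example, ran from -0.05 to 0.08 over all settings. The number of members called by limma between OFF6 and OFF3 was 1, and became 8 with array weights, 0 when only those 6 arrays were fitted, and 0 to 5 when 1 array was left out. Without OFF6 replicate 2 the 5 were Id1, Id2, Id3, Twist1 and Zeb1. The cause was not tested. Deviations of same-numbered replicates from their group means correlated at -0.39 to 0.25, with 3 of 18 above 0.1. With 3 arrays per group this check cannot tell whether the numbers pair samples. With a replicate block, the number of members called between OFF6 and OFF3 was 2. The block also took the day 3 call from Id1 (adjusted p = 0.0576 by limma) and gave one to Msc in OFF6 minus OFF3 (0.0368). Leaving out 1 array gave 4 to 6 calls in OFF3 minus TUM, 4 to 7 in OFF6 minus TUM, 7 to 8 in TUM minus CTL, 9 to 10 in OFF3 minus CTL and 8 in OFF6 minus CTL.

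Among 2520 repeats for other named genes, 2403 kept their side and 2 reversed. Pvalb, a fibre marker at 0.10 in OFF6 minus TUM, was -0.54 with array weights and ran from -0.53 (without OFF6 replicate 2) to 0.43 (without OFF6 replicate 3) when 1 array was left out. Alternatives for list counts and for these genes, and list counts without OFF6 replicate 2, were added after seeing the data.

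Of the 10 members, Twist2 and Msc lay below the median level of all genes (7.18) and none below the lower quartile (5.36). The deposited intensities come without a detection call, so small differences of such dim probe sets are the least certain.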
